A study of Mus musculus with 14 samples.

Results

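The nuclear-encoded subunits of oxidative phosphorylation were described in liver tumours driven by MYC. They were chosen by gene symbol: Nduf genes of the A, B, C, S and V series for complex I, Sdha to Sdhd for complex II, Uqcr genes for complex III, Cox4 to Cox8 genes for complex IV and Atp5 genes for complex V, with pseudogenes named -ps dropped. The rule used no measured value, although it was chosen with earlier results of these data known. It gave 81 genes of 16821 in the first of 2 deposited tables and the same 81 of 16095 in the second: 37 for complex I, 4 for complex II, 8 for complex III, 15 for complex IV and 17 for complex V. The choice by symbol also caught Atp5s and Atp5sl, counted with complex V although they are not subunits of the assembled enzyme. Ndufa4, whose protein is now placed in complex IV, and its relative Ndufa4l2 are counted with complex I by name. Total RNA of murine hepatocellular carcinoma, all of it MYC-driven and labelled as hepatocytes, was sequenced. The first table holds 4 tumours with a guide RNA against GFP (sgGFP, the control), 3 with a guide against Cul3 (sgCul3) and 3 with a guide against Keap1 (sgKeap1). The second holds 2 tumours whose guide targets the ETGE motif of NRF2 (sgNrf2 A and B) beside 2 controls, A and B, which repeat sgGFP tumours 2 and 4 according to their labels. The study asked how such tumours differ with and without active NRF2, with Cas9 aimed at its negative regulators or at the motif they bind. Not given in the sources used here: strain, sex, age and the way MYC was introduced. Nothing states that the tumours of a group came from separate animals, so p-values measure the spread between these samples only.

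Oxidative phosphorylation passes electrons from NADH (complex I) and succinate (complex II) through ubiquinone, complex III, cytochrome c and complex IV to oxygen, and the proton gradient this builds drives ATP synthesis by complex V. Most subunits are encoded in the nucleus and imported into mitochondria, while a small hydrophobic core of complexes I, III, IV and V is encoded by mitochondrial DNA. Hepatocytes are rich in mitochondria and use the chain for urea, glucose and lipid metabolism. KEAP1 and CUL3 form the ubiquitin ligase that holds the transcription factor NRF2 (gene symbol Nfe2l2) low through its ETGE motif, and NRF2 is known for antioxidant and detoxification genes. It is a different protein from the respiratory factors NRF1 and NRF2/GABP.

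A library of the first table held 6333025 to 12008223 reads on genes, and one of the second 17819333 to 20848578. The values are gene counts scaled for depth by the authors, here called scaled counts, and the 2 tables were scaled separately. Keap1 was lower in sgKeap1 than in sgGFP (log2 fold change -0.77 ± 0.21, SE; adjusted p = 0.048). Cul3 in sgCul3 was at 422 ± 256 against 1189 ± 184 scaled counts (mean ± SD), a log2 difference of -1.70 ± 0.39 that missed the threshold (adjusted p = 0.051). Nfe2l2 in sgNrf2 was at 1551 ± 91.6 against 1620.5 ± 316, and its level does not check an edit of the motif. Adjusted p-values throughout are those of limma after Benjamini-Hochberg adjustment over all genes tested, called at under 0.05, and fold changes are on the scale of log2 of the deposited value plus 1. All 10 hepatocyte markers of the list, among them Alb and Ttr, were read in every library, and summed to 126675 to 1231331 scaled counts over the first 10 libraries and to 340359 to 796637 over the 4 of the second table.

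The subunit mRNAs were abundant and unequal in level. They took 2.26 to 3.41% of the reads on genes among the first 10 libraries, 3.07 and 3.32% of those of controls A and B, and 1.94 and 1.97% of those of the sgNrf2 tumours. Per kilobase of transcript, the highest level in the sgGFP tumours was that of Atp5g3, a c-ring subunit of ATP synthase, at 17457 ± 3556 scaled counts per kilobase (mean ± SD, n = 4). Cox4i1, the ubiquitous subunit IV of cytochrome c oxidase, led complex IV at 15775 ± 6121 per kilobase. Uqcrq, a small subunit of complex III, led its complex at 13234 ± 8181. Sdhd, a membrane anchor of succinate dehydrogenase, led complex II at 4427 ± 1016, and Ndufa4 led the genes named for complex I at 7885 ± 2424, although its protein is now placed in complex IV. The sgGFP tumours spread widely, and the order of neighbours such as Uqcrq and Cox4i1 does not hold beyond that spread.

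At the low end stood forms restricted to other tissues and genes with near-identical copies. Cox4i2, the form of subunit IV known from lung and oxygen-sensing cells, had 8.60 ± 1.77 scaled counts per kilobase in sgGFP. Ndufa4l2, a hypoxia-induced relative of Ndufa4, had 113 ± 52.7. Atp5l and Atp5g2, which encode subunits of the ATP synthase membrane part, had 11.7 ± 3.75 and 21.3 ± 5.24 per kilobase. These last values carry a limit of counting. Of the 50-base windows of its transcript, 100% for Atp5g2 and 84.8% for Atp5l also occur in a transcript of another gene, mostly processed pseudogenes. At least 20% of windows were shared for 20 of the 81 members, including 66.00% for Atp5g1, 52.95% for Cox7c, 50.5% for Atp5h, 50.3% for Atp5o, 43.4% for Uqcrb and 32.05% for Cox5a. The second table has an entry of its own, apart from the genes, for reads that did not align to 1 place, and the first has none. Whether such reads were also counted towards a gene is not given in the sources used here, so the levels of these members are uncertain.

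Within the sgGFP group the subunits moved together from tumour to tumour. The median member stood at -0.64, 0.08, 0.01 and 0.58 log2 units from the group mean in sgGFP tumours 1, 2, 3 and 4. All genes tested had medians of -0.01, -0.01, 0.03 and -0.00 in the same libraries. Tumour 1 was low and tumour 4 was high in complexes I, III, IV and V, where the medians of tumour 1 were -0.60, -0.70, -0.73 and -0.59. The 4 subunits of complex II had medians of -0.22, -0.12, 0.25 and -0.05, with tumour 1 also lowest but tumour 3 highest. The summed level of the 7 mitochondrially encoded subunits in the table also was lowest in tumour 1 and highest in tumour 4, at 231959, 787271, 418066 and 1326700.3 scaled counts in tumours 1 to 4.

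**Figure D1:**
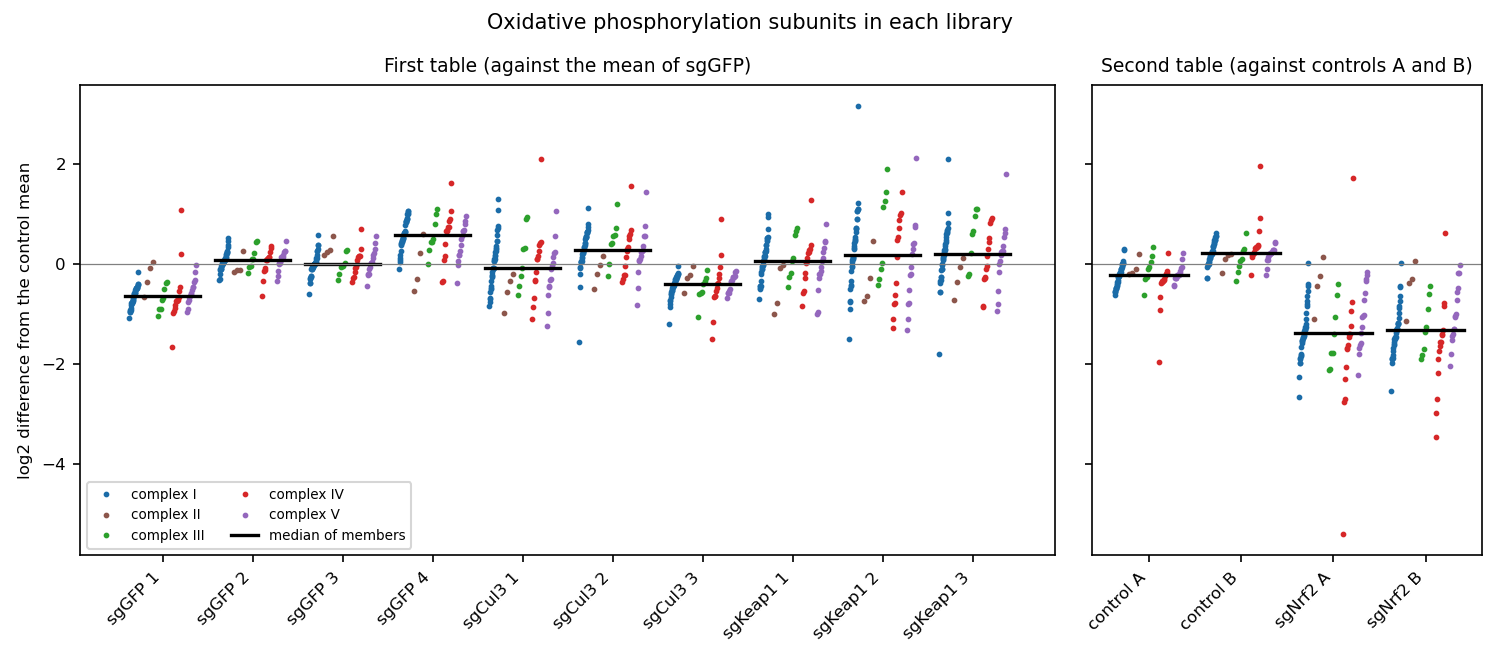
Log2 difference of each member from the mean of its control group (vertical axis) in each library (horizontal axis), coloured by complex, with the median of the members as a black line; 78 members are drawn for the first table and 80 for the second. The sgGFP medians spread from -0.64 to 0.58, the sgCul3 and sgKeap1 medians lie within that range, and the sgNrf2 medians are at -1.39 and -1.33.

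In the sgNrf2 tumours, the respiratory subunits were lower as a group of genes, in complexes I, III, IV and V. Of 80 members tested, 28 fell and none rose at the threshold, against 2.51% of all 13989 genes tested that were called lower and 1.9% called higher. At an unadjusted p under 0.05, limma put 65 members lower and 0 higher, against 15.1% and 15.2% of all genes. The log2 fold change was below 0 for 77 of 80 members, with a median of -1.33 for the members and 0.04 for all genes tested. Atp5l was not tested, with 12.9 and 10.1 scaled counts for control A and control B and 2.43 and 1.75 in sgNrf2 A and B. Both sgNrf2 libraries lay below both controls for 75 members and above them for 1, while 30.7% and 33.3% of all genes tested did so. The edgeR quasi-likelihood test on recovered reads called 25 members lower and none higher (all genes: 2.03% and 1.29%). DESeq2 called 63 lower and none higher (all genes: 10.4% and 8.51%). In bulk tumours, fewer cells of a type and less RNA per cell cannot be told apart. All 28 calls rest on both sgNrf2 libraries: without either of them no member passed, while 65 passed without control A and 44 without control B.

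The genes named for complex I, the entry point for NADH, held 16 of the 28, with Ndufa4 among them, whose protein is now placed in complex IV. Its median log2 fold change was -1.36. Ndufb4 (ENSMUSG00000022820.3, chromosome 16, 37647170 to 37654453; all positions are those of GENCODE M21 on GRCm38), an accessory subunit of the membrane arm, had 1349 and 3182 scaled counts for control A and control B and 325 and 352 in sgNrf2 A and B. Both sgNrf2 tumours were far below both controls, although the controls themselves were apart. Its log2 fold change of -2.61 ± 0.44 (adjusted p = 0.047) had the largest size among the called members, and 36.98% of its windows are shared with other transcripts. Ndufa7, an accessory subunit, was at 4459.5 and 2984 in the controls and at 1012 and 975 in sgNrf2 (-1.88 ± 0.25, adjusted p = 0.039). Ndufb7, a membrane-arm subunit facing the intermembrane space, was at 3541 and 3417 against 1187 and 1182, with the replicates of each group close together (-1.55 ± 0.17, adjusted p = 0.034). The others were Ndufa2, Ndufa4, Ndufa8, Ndufa11, Ndufa13, Ndufb2, Ndufb6, Ndufb8, Ndufb9, Ndufb11, Ndufs6, Ndufs7 and Ndufv3.

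The core of complex I that binds the flavin and iron-sulphur clusters differed from the accessory subunits in its counts. Of 7 nuclear-encoded core subunits, 1 was called, Ndufs7, the subunit that holds the last cluster before ubiquinone, at 3961 and 4003 in the controls and 1727 and 1753 in sgNrf2 (-1.19 ± 0.17, adjusted p = 0.042). The median of the 7 was -0.59. Of the 30 other genes named for complex I, which include Ndufa4 and Ndufa4l2, 15 were called, with a median of -1.49. Ndufs1, the largest core subunit, was at 4277 and 6015 in the controls and 5165 and 5174 in sgNrf2, with both tumours between the controls. Ndufv1, which binds NADH, was at 5989.5 and 4098 against 3645 and 3672, below both controls but not called (-0.44 ± 0.24, adjusted p = 0.28). The difference between core and other subunits was not tested, and the core subunits have the longer transcripts among them (Ndufs1 2590 nt, Ndufv1 1661 nt).

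Complex II, succinate dehydrogenase, had no called member of 4 (0 at limma's threshold; its median was -0.34). Sdha, the flavoprotein that oxidises succinate, was at 8402 and 9659 in the controls and 9914 and 9378 in sgNrf2, so that the groups overlapped (0.10 ± 0.20, adjusted p = 0.77). Sdhb, the iron-sulphur subunit, was at 6898 and 9181 against 3697 and 3619, below both controls (-1.12 ± 0.22, adjusted p = 0.057). At an unadjusted p under 0.05, limma put 1 of the 4 lower, and DESeq2 called 1.

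Complex III, which passes electrons from ubiquinol to cytochrome c, had 3 of 8 members called, all of them small accessory subunits. Uqcrq (ENSMUSG00000044894.14, chromosome 11, 53427922 to 53430831) was at 9484 and 11021 for control A and control B and at 2358 and 2722 in sgNrf2 A and B (-2.01 ± 0.20, adjusted p = 0.029). Uqcr11 was at 9419 and 8942 against 2136 and 2599 (-1.96 ± 0.19, adjusted p = 0.029). Uqcrh, the hinge protein near cytochrome c1, was at 11788 and 16793 against 4067 and 4316 (-1.75 ± 0.24, adjusted p = 0.042). In each of these the groups were well apart. The 2 core proteins, Uqcrc1 and Uqcrc2, were below both controls but not called, at -0.42 and -0.61. Uqcrfs1, the Rieske iron-sulphur protein that takes the electron from ubiquinol, was at 10933 and 16615 in the controls and 6481 and 7193 in sgNrf2 (-0.98 ± 0.27, adjusted p = 0.096).

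Complex IV, cytochrome c oxidase, had 5 of 15 called: Cox4i1, Cox5b, Cox7a2, Cox7b and Cox8a. Cox4i1 (ENSMUSG00000031818.12, chromosome 8, 120668222 to 120674207) was at 24992 and 31899.6 in the controls and 8709.8 and 9620.1 in sgNrf2 (-1.62 ± 0.24, adjusted p = 0.043). Cox7b, a small membrane subunit, was at 14914 and 23334 against 4450.1 and 4988 (-1.99 ± 0.28, adjusted p = 0.043). Cox5b, a matrix-side subunit that binds zinc, was at 2016 and 3273 against 833 and 764 (-1.69 ± 0.28, adjusted p = 0.047). For each of these both sgNrf2 tumours were lower than both controls. Cox6c was at 6395 and 16011 in the controls and 2034 and 2227 in sgNrf2, with control B far above control A, and was not called at an estimate of -2.25 ± 0.46 (adjusted p = 0.061). The median of complex IV was -1.62, and the 1 member above 0 was Cox4i2, described with the other tissue-restricted forms.

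The genes named for complex V, ATP synthase, had 4 of 16 tested members called: Atp5e, Atp5j2, Atp5k and Atp5o. The 16 include Atp5s and Atp5sl, which are not subunits of the assembled enzyme. They were not called, with log2 fold changes of -0.54 and -0.16. Atp5e (ENSMUSG00000016252.7, chromosome 2, 174461072 to 174464105), the epsilon subunit of the rotor, was at 9496 and 12800.4 in the controls and 2370.5 and 2683 in sgNrf2 (-2.13 ± 0.23, adjusted p = 0.034). Atp5o, the subunit that ties the catalytic head to the stalk, was at 13282 and 19346 against 5217 and 5549 (-1.57 ± 0.26, adjusted p = 0.047). Atp5k, a small subunit of the membrane part, was at 5287 and 7230.4 against 1925 and 2281 (-1.56 ± 0.23, adjusted p = 0.044). The catalytic head was not called. Atp5b, its beta subunit, was at 66269 and 49151 in the controls and 49010.4 and 50609.9 in sgNrf2, so that the groups overlapped (-0.20 ± 0.32, adjusted p = 0.7). Atp5a1, the alpha subunit, was at 49268 and 66918 against 45135 and 39030.1 (-0.45 ± 0.32, adjusted p = 0.38).

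**Figure D2:**
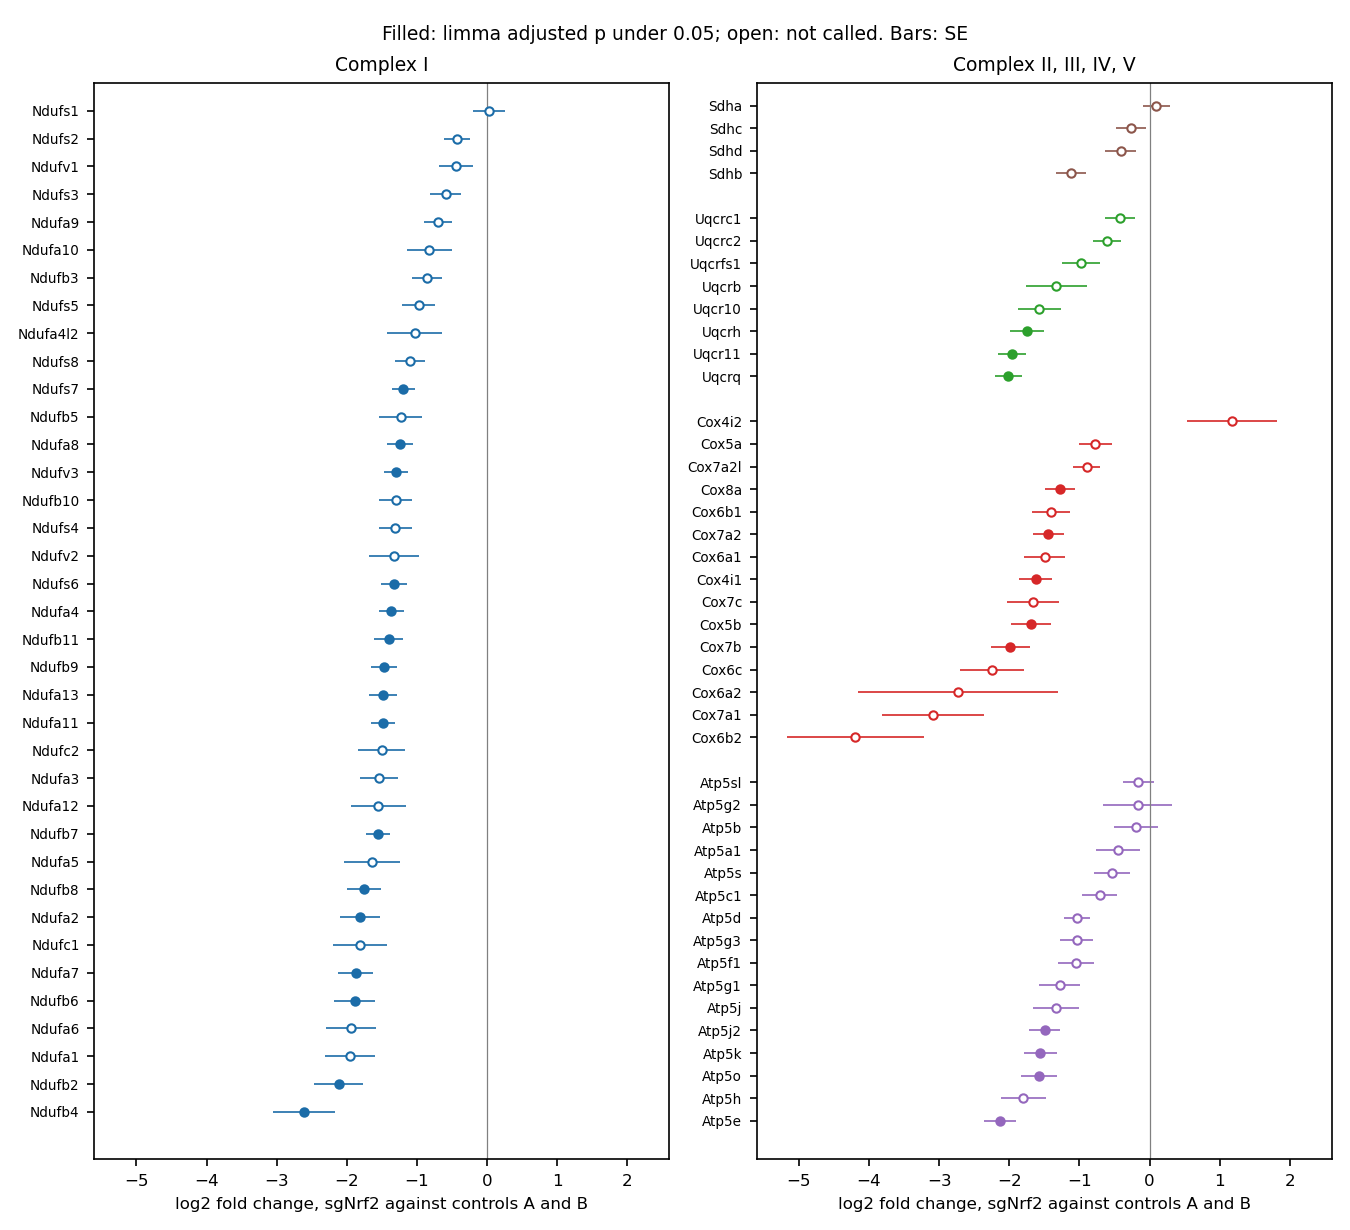
Log2 fold change with SE of each of the 80 tested members in sgNrf2 against controls A and B (horizontal axis), by gene (vertical axis) and complex; filled points have a limma adjusted p under 0.05. The 28 filled points lie between -2.61 and -1.19, and the points near 0 include Sdha at 0.10 and Ndufs1 at 0.03.

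Promoters are shown for the called member with the lowest fold change in each of complexes I, III, IV and V that has an entry in RefSeq, and for Sdha, a member that was not lower, for comparison. The choice of these genes was made after their values were seen. Each line runs 5′ to 3′ from 250 bases before the RefSeq start (GRCm38.p6) and stops where the most upstream GENCODE M21 transcript of the gene begins, with matches to the motifs searched in capitals. That leaves out the last 85 bases before the RefSeq start of Ndufb4, 9 of Uqcr11, 4 of Atp5e and 40 of Sdha. The bases left out hold further matches to the motif of the respiratory factor NRF1, 79 to 70 and 22 to 13 bases before the start in Ndufb4 and 10 to 1 in Sdha. The locations are chr16:37654454-37654618, minus strand for Ndufb4, chr10:80406831-80407071, minus strand for Uqcr11, chrX:106015450-106015699, plus strand for Cox7b, chr2:174464106-174464351, minus strand for Atp5e and chr13:74350281-74350490, minus strand for Sdha.
Ndufb4: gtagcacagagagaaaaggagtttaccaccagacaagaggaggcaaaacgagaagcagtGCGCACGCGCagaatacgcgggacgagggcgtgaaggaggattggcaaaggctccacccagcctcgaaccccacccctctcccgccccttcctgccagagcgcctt
Uqcr11: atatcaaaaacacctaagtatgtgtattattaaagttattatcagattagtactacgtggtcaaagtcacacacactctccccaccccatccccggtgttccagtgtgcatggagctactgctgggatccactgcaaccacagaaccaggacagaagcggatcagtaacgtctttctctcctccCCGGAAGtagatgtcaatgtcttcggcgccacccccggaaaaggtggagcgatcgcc
Cox7b: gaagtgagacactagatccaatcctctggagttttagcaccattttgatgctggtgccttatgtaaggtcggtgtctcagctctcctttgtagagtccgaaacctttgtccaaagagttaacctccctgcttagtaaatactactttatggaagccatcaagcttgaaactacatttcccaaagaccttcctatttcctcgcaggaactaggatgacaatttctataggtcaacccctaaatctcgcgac
Atp5e: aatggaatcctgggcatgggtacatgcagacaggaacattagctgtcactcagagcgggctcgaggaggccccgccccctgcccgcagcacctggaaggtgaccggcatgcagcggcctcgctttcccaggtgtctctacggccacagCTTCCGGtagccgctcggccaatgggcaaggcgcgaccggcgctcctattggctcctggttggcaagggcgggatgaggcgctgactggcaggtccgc
Sdha: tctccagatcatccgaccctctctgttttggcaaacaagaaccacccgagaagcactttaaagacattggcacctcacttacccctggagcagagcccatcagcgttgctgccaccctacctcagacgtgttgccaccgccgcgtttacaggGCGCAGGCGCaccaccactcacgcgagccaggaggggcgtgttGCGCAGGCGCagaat
The capitals mark the NRF1 motif in Ndufb4 and Sdha, and CCGGAAG, the site of ETS factors such as GABP, in Uqcr11 and Atp5e. Both strands were read, so that a match can appear as its reverse complement, and the marked motifs do not overlap. Cox7b held none of the motifs searched in this window.

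Over the 250 bases before the start, 64 of the 81 members had an entry, and 13 of them (20.3%) held the NRF1 motif against 4.23% of all 27025 genes with a promoter. The ETS motif was in 12 members (18.8%) against 7.83% of all genes. CACGTG, the E-box read by MYC, was in 5 members (7.81%) against 6.86%. TGACNNNGC, the core of the antioxidant response element read by NRF2, was in 6 members (9.38%) against 11.5%. AAGATGGC, the YY1 motif, was in 1 member (1.56%) against 1.83%. Among the 24 called members with an entry, 5 held the NRF1 motif, 5 the ETS motif and 2 the antioxidant response element core, and among the 40 others the counts were 8, 7 and 4. A match is a description of letters and not a site.

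In sgNrf2 the size of the difference moved with transcript length. The members are short: the median transcript was 861 nt in complex I, 541 nt in complex III, 645 nt in complex IV and 838 nt in complex V, against 2065.5 nt in complex II. Across the 80 members, log2 fold change and log2 length had a Pearson r of 0.599 (Spearman rho 0.642), and over all 12736 protein-coding genes tested r was 0.225. These are descriptions across genes, which are not independent and share their libraries. With the length of all annotated exons in place of 1 transcript, r over the members was 0.338. Under 750 nt, 39 members had a median of -1.56 with 18 called, and the 331 other genes of that length had a median of -0.93 with 17.8% called lower. From 750 to under 1500 nt, 26 members had a median of -1.21 with 9 called, against -0.36 and 3.81% in 1812 other genes. From 1500 to under 3000 nt, 14 members had a median of -0.45 with 1 called, against 0.02 and 1.88% in 4693 other genes.

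Short genes outside the list were also lower in sgNrf2 than long ones. The median log2 level of other genes under 750 nt minus that of other genes of 3000 nt or more was 0.527 and 0.216 for control A and control B and -1.01 and -0.736 in sgNrf2 A and B. In the first table the same difference ran from -0.267 to 1. It was -0.114, 0.52, -0.267 and 0.415 in sgGFP tumours 1 to 4, so that tumours 2 and 4, which controls A and B repeat, were the higher ones. Set against other genes of their own length class, the members in sgNrf2 had a median of -0.68, 75 of 80 were below their class median, and the complexes stood at -0.84 (I), -0.31 (II), -0.64 (III), -0.70 (IV) and -0.55 (V). The length classes were chosen after values were seen. Reads that did not align to 1 place, per read on genes, were 1.64 and 1.74 in the controls and 0.944 and 1.01 in sgNrf2, and the part of alignment or RNA quality in the result was not tested. Members with at least 20% of shared windows had a median of -1.48 (7 of 19 called) and those under 20% a median of -1.32 (21 of 61 called).

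**Figure D3:**
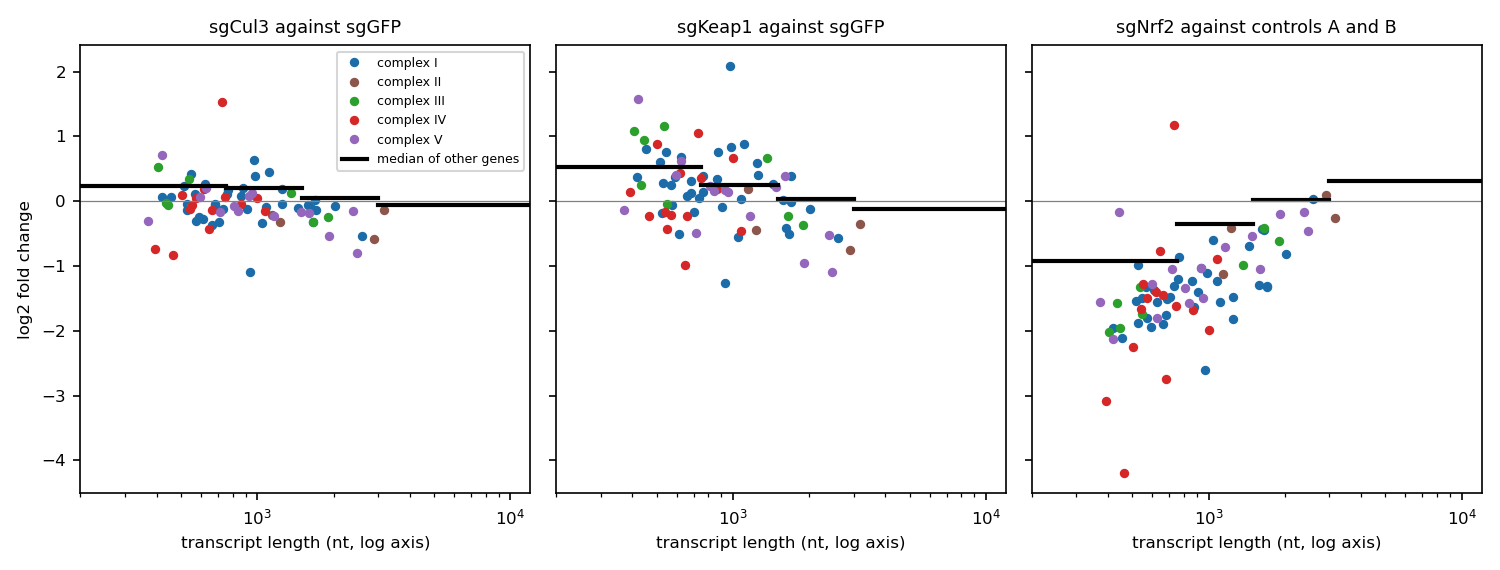
Log2 fold change of each member (vertical axis) against the length of its transcript in nt (horizontal log axis) in sgCul3, sgKeap1 and sgNrf2, each against its controls; black lines are medians of the other genes in 4 length classes. In sgNrf2 the members under 750 nt have a median of -1.56 and those of 1500 to under 3000 nt one of -0.45, while in sgKeap1 the corresponding medians are 0.26 and -0.39.

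In the sgKeap1 tumours the subunits did not move in 1 direction. Of 78 members tested, 1 fell and none rose, against 3.37% of all 13045 genes tested called lower and 4.45% called higher. At an unadjusted p under 0.05 limma put 5 higher and 8 lower (all genes: 14.9% and 14.3%). The edgeR test called 0 higher and 1 lower (all genes: 4.68% and 2.68%), and DESeq2 2 higher, Atp5e and Ndufb4, and 4 lower, Atp5a1, Atp5b, Cox5a and Sdha (all genes: 9.05% and 7.37%). All 3 tumours lay above the sgGFP range for 1 member and below it for 5, and for 13.1% and 12.6% of all genes. The median was 0.16 for the members and -0.01 for all genes. It was -0.04 without sgGFP 1 and 0.37 without sgGFP 4 or with the block, so 1 control tumour left out turned its sign. Cox6a2, Atp5g2 and Atp5l were too low to be tested in the first table. The called member was Cox5a, a matrix-side subunit of complex IV (ENSMUSG00000000088.6, chromosome 9, 57521274 to 57532426). It was at 2049.7, 3288, 3665 and 3138 scaled counts in the sgGFP tumours and at 1657, 1218 and 1644 in the sgKeap1 tumours. All 3 sgKeap1 tumours were below all 4 sgGFP tumours. The means were 1506 ± 249.6 against 3035 ± 693 (SD), with a log2 fold change of -0.99 ± 0.26 (adjusted p = 0.043). The call was lost when sgGFP 2, 3 or 4 or sgKeap1 2 or 3 was left out, and adjusted p ran from 0.0047 to 0.16 over all alternatives, edgeR and DESeq2 included. In sgCul3, against the same controls, Cox5a was at 1621, 2299 and 2834, which overlaps them.

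Within ATP synthase, Atp5a1 and Atp5b had the lowest estimates in sgKeap1 and Atp5e the highest, without passing the threshold. Atp5a1 was at 18683, 23332, 38186 and 26853 in sgGFP and 12953, 10312 and 13504 in sgKeap1 (-1.09 ± 0.34, adjusted p = 0.069), with the groups apart. Atp5b was at 25600.1, 31392, 38096 and 22001 against 14641, 13417 and 16502 (-0.95 ± 0.32, adjusted p = 0.085), also apart. Atp5e was at 1892, 5066, 2701 and 7183 against 6404, 16050.2 and 12861 (1.57 ± 0.54, adjusted p = 0.091), with sgGFP tumour 4 above the lowest sgKeap1 tumour. Atp5a1 and Atp5b have transcripts of 2471 and 1916 nt and Atp5e one of 421 nt, while Atp5k, the shortest of the complex at 371 nt, was at -0.14. The members under 750 nt had a median of 0.26 and other genes of that length one of 0.53. From 1500 to under 3000 nt the medians were -0.39 and 0.03. Relative to other genes of their length class, 54 of 78 members were lower, with a median of -0.16.

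Complex III had the highest median in sgKeap1, 0.45, and complex II the lowest, -0.40, with no member of either called. Uqcrb, a small accessory subunit with 43.4% of shared windows, was at 477, 759, 765 and 1361 in sgGFP and 1232, 2929 and 1524 in sgKeap1 (1.17 ± 0.44, adjusted p = 0.11). Uqcrq was at 2251, 4438, 4701 and 10049 against 7698, 12592 and 9987 (1.09 ± 0.51, adjusted p = 0.18). Both overlapped the sgGFP group through tumour 4. Ndufb4 had the highest estimate, 2.09 ± 0.62, from 206, 535, 256 and 819 in sgGFP to 786, 3515 and 1675 in sgKeap1 (adjusted p = 0.061). In that gene 2 sgKeap1 tumours were above all sgGFP tumours and 1 was within their range. Sdha was at 4237, 4000.0, 6602 and 3630.0 against 2626, 2698 and 2704, with all sgKeap1 tumours below (-0.75 ± 0.25, adjusted p = 0.082).

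In the sgCul3 tumours no member was called of 78 tested, with or without the tumour number as a block, while 1.35% of all genes were called higher and 0.851% lower. At an unadjusted p under 0.05, limma put 1 member higher and 4 lower (all genes: 9.07% and 8.11%). The edgeR test called none (all genes: 1.3% higher and 0.59% lower). DESeq2 called 1 higher, Cox4i2, and none lower (all genes: 3.67% and 3.43%). The median was -0.07 for the members and 0.01 for all genes. In the blocked fit, and without sgGFP 4, the members' median turned to 0.12, and it turned to 0.09 without sgCul3 3. It was -0.28 without sgGFP 1 and -0.23 without sgCul3 2. Complex medians ran from -0.27 in complex II to -0.04 in complex III. Atp5a1 had 10856, 14542 and 20505 scaled counts in sgCul3, and its highest value lay within the sgGFP range (-0.81 ± 0.34, adjusted p = 0.24). Atp5e was at 7675, 10041 and 2863, with 2 tumours above the sgGFP range and 1 within it (0.71 ± 0.54, adjusted p = 0.55). Against other genes of their length class, 67 of 78 members were lower, with a median of -0.27. The groups were apart for 1 member above and 1 below the sgGFP range, where 8.71% and 7.54% of all genes were.

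The mean of both guides against sgGFP called 1 member higher, Cox4i2, and none lower, against 4.37% and 3.19% of all genes. At an unadjusted p under 0.05 limma put 3 higher and 6 lower (all genes: 14.2% and 12.8%). The edgeR test called 1 higher and 1 lower (all genes: 4.16% and 3.63%), and DESeq2 2 and 6 (all genes: 8.47% and 7.26%). All 6 guide tumours lay above the sgGFP range for 1 member and below it for 1, and for 5.13% and 4.1% of all genes. With the tumour number as a block, which leaves out sgGFP tumour 4, the calls were 2 higher, Atp5e and Ndufb4, and 1 lower, Sdha. The member median was 0.03, and it was -0.18 without sgGFP 1, -0.06 without sgCul3 2, 0.13 without sgCul3 3 and 0.21 without sgGFP 4 or with the block. sgKeap1 against sgCul3 called no member in either direction, where 0.0307% of all genes were called each way. There limma put 1 higher and 0 lower at an unadjusted p under 0.05 (all genes: 4.86% and 5.22%). Neither edgeR nor DESeq2 called a member, where edgeR called 0.023% of all genes each way and DESeq2 0.491% higher and 0.307% lower. The groups were apart for 1 member each way, and for 7.52% and 8.24% of all genes. The median difference was 0.22, with 55 of 78 members above 0, but it was 0.01 without sgCul3 3 and 0.41 without sgCul3 2. Ndufb4 had the highest difference, 1.46 ± 0.66, and Cox5a the lowest in complex IV, -0.56 ± 0.28 (adjusted p = 0.49 and 0.52). With every library scaled to the same total, the median difference between sgKeap1 and sgCul3 was -0.02 for the members and -0.24 for all genes, and that between sgKeap1 and sgGFP was -0.04 for the members and -0.20 for all genes.

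Tissue-restricted forms of complex IV were low, and Cox4i2 was the member called higher for the ligase guides together. Cox4i2 (ENSMUSG00000009876.13, chromosome 2, 152754173 to 152765037) was at 7.42, 6.90, 6.20 and 4.47 scaled counts in sgGFP, at 33.2, 22.2 and 13.3 in sgCul3 and at 17.98, 14.2 and 12.99 in sgKeap1. In scaled counts every guide tumour was above every sgGFP tumour. These are few reads: 11, 9, 7 and 5 in sgGFP, 24, 25 and 17 in sgCul3 and 22, 7 and 9 in sgKeap1. In reads the sgKeap1 and sgGFP tumours thus overlap. The sgGFP scaled counts are under the mean of 10 that a gene needed to be tested. Cox4i2 therefore entered the test through the guide tumours, and its call is a description that supports nothing. For both guides together the log2 fold change was 1.29 ± 0.35 (adjusted p = 0.049), while against sgGFP the guides alone gave 1.52 ± 0.41 with sgCul3 and 1.05 ± 0.41 with sgKeap1, not called (adjusted p = 0.091 and 0.13). The call held under 6 of 18 alternatives, with adjusted p from 0.021 to 0.13. It was lost when any 1 library except sgCul3 3 was left out. In the second table Cox4i2 was at 10.8 and 18.98 in the controls and 49.4 and 22.7 in sgNrf2 (1.17 ± 0.64, adjusted p = 0.28). Cox4i1, its ubiquitous counterpart, was at 6233, 11725, 11649.7 and 17402 in sgGFP, 11886, 16209.7 and 7877 in sgCul3 and 11967, 16147 and 14882 in sgKeap1, with all groups overlapping.

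Cox4i2 is known from pericytes among other cells, and the pericyte marker Rgs5 was also higher. No other marker of the same list was called in sgCul3 or in sgKeap1. Rgs5 was at 175, 146, 228 and 127 scaled counts in sgGFP, 453, 442 and 432 in sgCul3 and 359, 695 and 281 in sgKeap1. It rose by 1.41 ± 0.30 log2 units with sgCul3, by 1.31 ± 0.30 with sgKeap1 and by 2.25 ± 0.25 with sgNrf2 (adjusted p = 0.042, 0.029 and 0.034). Of the smooth muscle and stellate cell markers, Rgs5 was the 1 called of 9 tested in sgCul3 and in sgKeap1, and Rgs5 and Pdgfrb were the 2 called of 8 tested in sgNrf2. Pdgfrb, also a pericyte marker, was at 0.23 ± 0.38 in sgCul3 and -0.16 ± 0.38 in sgKeap1, Myh11 at 0.17 ± 0.52 and -0.56 ± 0.52, and Col1a1 at -1.28 ± 0.37 and -0.21 ± 0.37, none of them called. Over the 9 tested markers, 6 were above 0 in sgCul3 and 6 in sgKeap1, with medians of 0.23 and 0.59. The highest estimate in sgKeap1 was 2.25, above that of Rgs5, and was not called. In sgNrf2, 7 of 8 were above 0, with a median of 1.19. The summed level of the list was 1488, 859, 1929.9 and 1121 in sgGFP, 1025 to 3456 in the guide tumours, 1602 and 2141 in the controls and 4893 and 3496 in sgNrf2. The part of these cells in the Cox4i2 values was not tested.

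The other restricted forms were called by neither limma nor edgeR, while DESeq2 called Cox6b2 and Cox7a1 lower in sgNrf2 and Ndufa4l2 lower for both guides. Cox7a1, the heart and muscle form of subunit VIIa, was at 22.9, 48.3, 126 and 239 in sgGFP, 118 and 423 in the controls and 33.2 and 19.2 in sgNrf2 (-3.09 ± 0.73, adjusted p = 0.075). Cox6b2, the testis form of VIb, was at 48.5 and 35.4 in the controls and 0 and 4.37 in sgNrf2. Cox6a2, the muscle form of VIa, was at 2.16 and 46.8 against 0.810 and 0.874, or 2 and 37 reads against 1 read in each sgNrf2 library. All 3 were below both controls in sgNrf2, but for Cox6a2 the reads are too few to tell control A from sgNrf2. Control B was far above control A for Cox7a1 and Cox6a2. Ndufa4l2 was at 51.3, 75.9, 143 and 150.4 in sgGFP, 67.7, 31.02 and 40.7 in sgCul3 and 67.8, 32.4 and 25.97 in sgKeap1 (-1.18 ± 0.40 for both guides, adjusted p = 0.091), which overlap. Of the muscle markers, Acta1 was at 11.9 and 1.27 scaled counts for control A and control B against 149.9 and 37.6 in the sgNrf2 tumours, and Ckm was at 35.6 and 1.27 against 2.43 and 0.874. The summed muscle list ran from 84.1 to 168 in the first table. In the second it was 225 and 190 for control A and control B and 319 and 212 in sgNrf2 A and B. Of the 5 muscle markers tested in sgNrf2, 3 were above 0 and 2 below, with a median of 0.17 and 0 called.

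**Figure D4:**
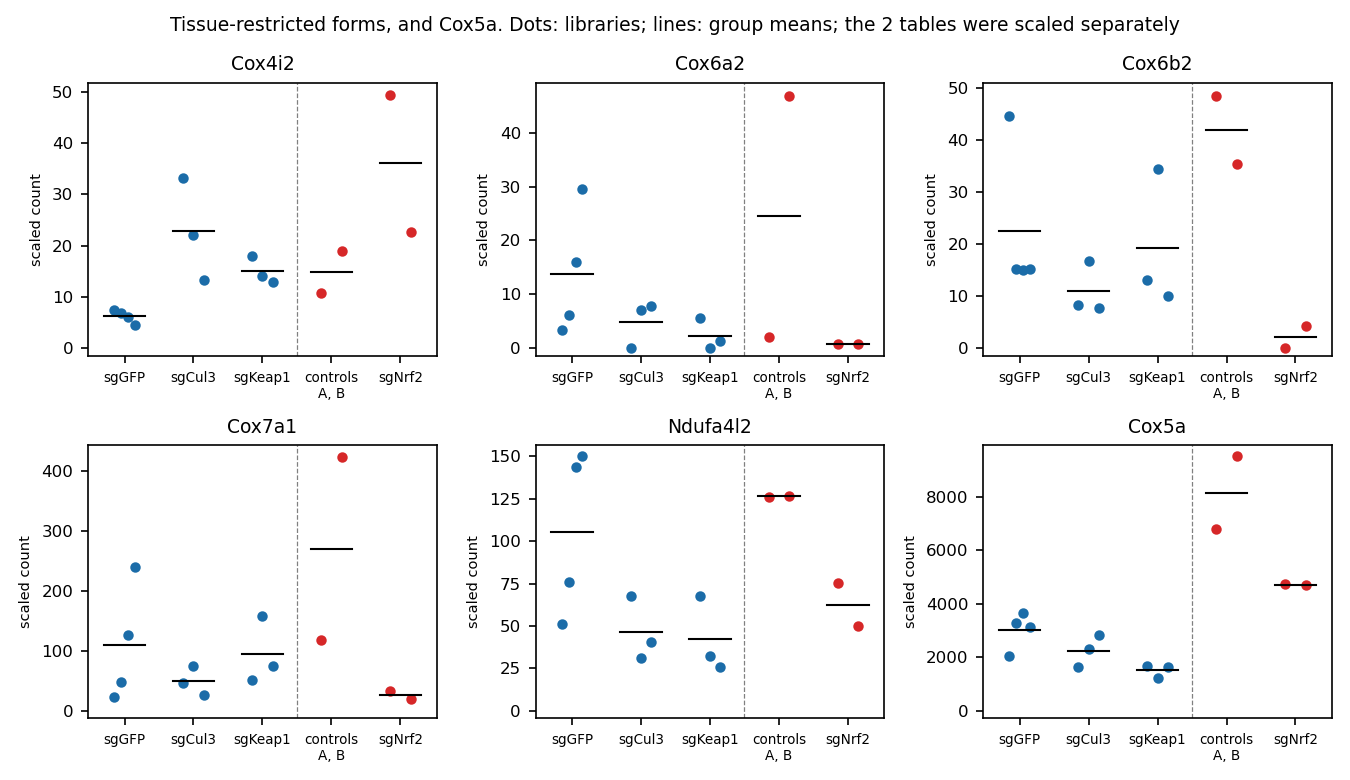
Scaled counts (vertical axis) of Cox4i2, Cox6a2, Cox6b2, Cox7a1, Ndufa4l2 and Cox5a in each library by group (horizontal axis); dots are libraries, lines are group means, and the dashed line parts the 2 separately scaled tables. Cox4i2 is 4.47 to 7.42 in sgGFP and 13.0 to 33.2 in the guide tumours, and Cox5a is 1218 to 1657 in sgKeap1, below all sgGFP tumours.

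Of 123 tested genes that serve the complexes or the mitochondrion without being members, 3 were called lower in sgNrf2 (2.44%, against 2.51% of all genes) and none higher. DESeq2 called 30 lower (24.4%, against 10.4%) and limma put 33 lower at an unadjusted p under 0.05 (26.8%, against 15.1%). Of 21 electron carriers and further subunits tested, 1 fell, Etfb, the beta subunit of the flavoprotein that takes electrons from fatty acid oxidation, at 4289 and 5671 in the controls and 1018 and 1427 in sgNrf2 (-2.03 ± 0.26, adjusted p = 0.038). Of 26 complex IV assembly factors, 2 fell, Higd2a (-1.13 ± 0.18) and the copper chaperone Sco2 (-1.45 ± 0.21), with adjusted p = 0.045 and 0.043. None was called of 14 assembly factors of complex I (median -0.22), 13 of complexes II, III and V (-0.42), 17 regulators of mitochondrial biogenesis (-0.11), 17 citric acid cycle enzymes (-0.16) and 15 outer membrane and carrier genes (-0.14). DESeq2 called 9 of the electron carriers and further subunits lower, 9 of the complex IV assembly factors, and 1, 3, 2, 2 and 4 genes of the other lists in that order. At an unadjusted p under 0.05 limma put 8, 10, 2, 3, 4, 2 and 4 lower. Whether these lists differ from the members was not tested.

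In sgKeap1, 6 of these 123 genes were called higher (4.88%, against 4.45% of all genes) and 2 lower (1.63%, against 3.37%), so that the lists' shares were near or below those of all genes. Uqcc2, which helps assemble cytochrome b into complex III, was at 426, 702, 553 and 1374 in sgGFP and 1664, 3904 and 2778 in sgKeap1 (1.92 ± 0.47, adjusted p = 0.035). Pet100 (2.34 ± 0.64), Cox19 (1.25 ± 0.28) and Cmc1 (0.78 ± 0.21), 3 of 26 assembly factors of complex IV, and Sdhaf3 (1.16 ± 0.31), an assembly factor of complex II, also rose, with adjusted p = 0.048, 0.023, 0.049 and 0.045. Yy1, a transcription factor tied to mitochondrial genes, rose (1.35 ± 0.27, adjusted p = 0.015). Etfdh, which passes electrons from that flavoprotein to ubiquinone, fell from 1799, 2026, 2472 and 1201 in sgGFP to 630.1, 671 and 863 (-1.34 ± 0.33, adjusted p = 0.035), and Hspa9, the matrix chaperone of protein import, fell (-1.25 ± 0.34, adjusted p = 0.049).

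For both guides together 2 of these genes were called higher (1.63%, against 4.37% of all genes) and 3 lower (2.44%, against 3.19%). Cox19 (1.20 ± 0.23) and Yy1 (1.08 ± 0.23) rose, and Etfdh (-1.36 ± 0.28), Foxred1 (-0.68 ± 0.18), an assembly factor of complex I, and Slc25a4 (-1.04 ± 0.25), the ADP/ATP carrier, fell, with adjusted p = 0.012, 0.017, 0.016, 0.046 and 0.032. No gene of these lists was called by limma or edgeR in sgCul3 alone or in sgKeap1 against sgCul3, where limma put at most 3 genes of a list in 1 direction at an unadjusted p under 0.05 and DESeq2 called at most 1. The 17 citric acid cycle enzymes had no call by limma or edgeR in any comparison (2 were lower at an unadjusted p under 0.05 in sgCul3 and 7 in sgKeap1, where DESeq2 called 0 and 2), with medians of -0.40 in sgCul3 and -0.49 in sgKeap1.

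The 7 mitochondrially encoded subunits in the tables, of 13, were lower in both sgNrf2 tumours without passing the threshold. Their summed level was 1696217 and 2883364 scaled counts for control A and control B and 434714 and 544841 in sgNrf2 A and B. The median log2 fold change was -2.25, and all 7 were below 0, with 0 called by limma or edgeR, 7 lower at limma's unadjusted p under 0.05 and 7 called lower by DESeq2. mt-Co1, the catalytic subunit of complex IV, was at 495385 and 704325 in the controls and 112725 and 136477 in sgNrf2 (-2.25 ± 0.53, adjusted p = 0.076). In the first table the sums were 645009, 501801 and 137146 in sgCul3 and 778230.1, 1733251 and 1075279.5 in sgKeap1, which overlap the sgGFP values, and no gene was called.

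Markers of other cells also differed between the groups. The erythroid list was lower, with 4, 6 and 8 of 11 genes called in sgCul3, sgKeap1 and sgNrf2, and summed levels of 5088 to 15248 in sgGFP, 425 to 11343 in sgCul3, 1984 to 2176 in sgKeap1, 17585 to 19690.3 in the controls and 1006 to 2078 in sgNrf2. The neutrophil list had 0, 10 and 4 of 15 genes called lower, and summed levels of 2511 to 7616, 1456 to 11517, 579.7 to 3103, 13336 to 16538 and 2856 to 6660.2 in the same order. No hepatocyte marker of 10 was called by limma or edgeR in any comparison, with a median of -0.77 in sgNrf2, where 4 were lower at an unadjusted p under 0.05 and DESeq2 called 4 lower. In sgNrf2 the macrophage and Kupffer cell list had 2 of 11 tested genes called lower, Marco and Clec4f. Over the 11, 7 were above 0 and 4 below, with a median log2 fold change of 0.89 and a lowest of -5.58. The sums of that list were 20447 and 3039 in the controls and 14425 and 15066 in sgNrf2. The endothelial list was split in sgNrf2, with 7 of 10 genes above 0 and 3 below (median 0.83, lowest -3.35). Pecam1 was the 1 called, and it was higher. At an unadjusted p under 0.05 limma put 4 higher and 3 lower (all genes: 15.2% and 15.1%). The sums of that list were 1608 and 1728 in the controls and 3003 and 3202 in sgNrf2. With the ligase guides endothelial calls were lower: 2 of 10 in sgCul3 (Lyve1 and Vwf), 1 in sgKeap1 (Vwf) and 3 for both guides (with Stab2), where edgeR called 0, 0 and 3. The endothelial sums were 869 to 1342 in sgGFP, 464 to 813 in sgCul3 and 667 to 1684 in sgKeap1. The 2 tested brown fat markers had no call by limma or edgeR. The part of these cells in the subunit values was not tested.

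The control tumours sequenced in both tables give a check of how stable the members are between repeats. Log2 levels in sgGFP tumour 4 minus sgGFP tumour 2 had a median of 0.495 over 78 members, and control B minus control A one of 0.426, with 65 and 67 members above 0. The other 12827 genes tested in both tables had medians of 0.0097 and 0.0465. Across genes, which are not independent, the differences in the 2 tables had a Pearson r of 0.529 for the members and 0.809 for the other genes. The same tumour was the higher one for most subunits in both tables. The spread of the library medians within groups, pooled over control and guide groups, was 0.376 (SD) in the first table and 0.213 in the second. In each table the control libraries alone spread more widely than that pooled value. The distance between sgNrf2 and its controls was -1.33. Tumours 2 and 4, which serve as those controls, had the 2 highest member medians of the 4 sgGFP tumours in the first table. They were 0.08 and 0.58, against -0.64 and 0.01 in tumours 1 and 3. The part of this choice of controls in the distance was not tested.

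**Figure D5:**
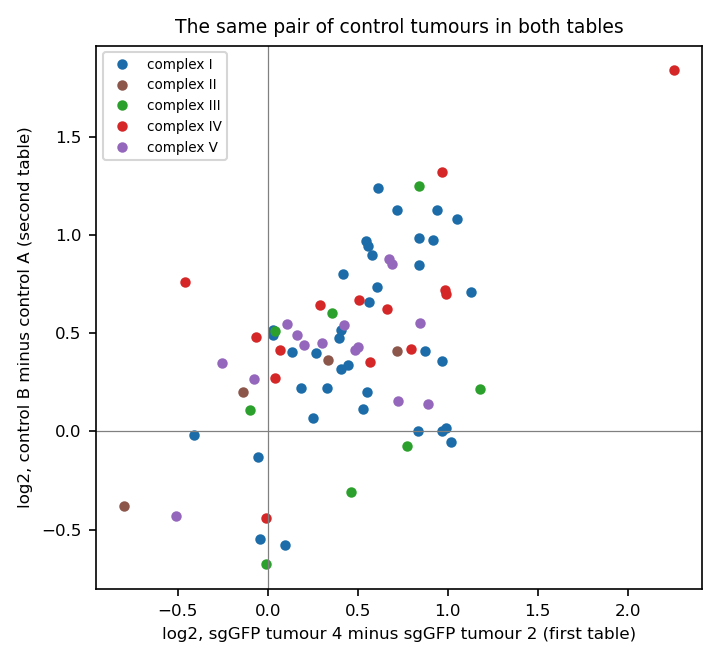
Log2 difference between the 2 control tumours that were sequenced for both tables, in the first table (horizontal axis, sgGFP tumour 4 minus 2) and in the second (vertical axis, control B minus A), for 78 members coloured by complex. Most points lie above 0 on both axes, with medians of 0.495 and 0.426.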

How the data were processed

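Total RNA was extracted with a Qiagen kit and made into Illumina TruSeq libraries, per the labels. The authors deposited a signal per gene: counts by HTSeq scaled by DESeq, with Picard and mm10 also named, per the submitters' processing notes. Not given in the sources used here: tool versions, aligner, annotation release and the handling of strand. In the deposited values the first table has 1 added to every entry (its smallest value is 1 in each library), which was removed from the levels in the text. 4 entries of no gene in the second table were left out. Values were whole multiples of 1 step per library within 0.1 reads for 100% of genes, so reads were recovered for edgeR and DESeq2. Floors and depth cover counting error only.

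The members and gene lists were chosen with earlier results of these data known. Genes were kept where the deposited values averaged 10 or more and tested in limma 3.58.1 (R 4.3.3) on log2(value + 1), with a mean-variance trend, two-sided, with Benjamini-Hochberg adjustment over all genes and a threshold of 0.05. Its 3 groups being fitted together, the first table had 1 common estimate of the spread, and the second table was fitted alone. sgCul3, sgKeap1 and both guides share the sgGFP controls. Alternatives were edgeR 4.0.16, DESeq2 1.42.0, a pseudocount of 5, no filter, quantile normalization, a mean of at least 50, equal library totals, only the groups compared, a replicate block and each library left out. A further 2 were added after the data were seen, removal of the added 1 and differences within length classes. The fits were also run on simulated counts in which genes varied independently. The members moved together between tumours, so those runs do not show how the fits behave for them. Correlations of the deviations from group means, between tumours of the same number, were 0.164, 0.175 and 0.314 for sgCul3 and sgGFP. They were 0.199, 0.043 and -0.094 for sgKeap1 and sgGFP, and 0.239, 0.518 and 0.098 for sgKeap1 and sgCul3. The main fits had no block for tumour number, so values are unpaired except where the block is named.

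Named members were those called, the highest and lowest fold change and level per kilobase in each complex, and isoform sets; of other lists, at most 4 called genes per list and comparison. Further members were named after their values were seen, for their roles: Ndufs1, Ndufv1, Sdhb, Uqcrc1, Uqcrc2, Uqcrfs1, Cox6c and Atp5b in sgNrf2, Atp5b in sgKeap1, Acta1, Ckm and mt-Co1. Transcript lengths and shared 50-base windows come from 1 transcript per gene in GENCODE M21 (best APPRIS and support level, then the shortest, which was chosen after lengths were seen), and promoters from RefSeq.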

Additional observations from a re-analysis of the deposited data

Results flagged for a closer look

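Of 62 sets of 4 sgGFP values checked, 3 had 1 tumour far from the other 3, and chance gives about 1 in 20. Cox6b2 was 44.5 scaled counts in sgGFP tumour 1 and 15.1 to 15.3 in the others. Cox7a2l, which joins complexes III and IV, was 823 in sgGFP tumour 1 and 1244 to 1277 in the others. Ndufs1 was 3247 in sgGFP tumour 3 and 2222 to 2322 in the others.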

How the results depend on the processing

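Counts of called members depended on the tool. DESeq2 called 1 member higher in sgCul3, 2 higher and 4 lower in sgKeap1, 2 higher and 6 lower for both guides, and 63 lower in sgNrf2. For both guides, Cox4i2 was lost, leaving 0 higher, with a pseudocount of 5, a mean of at least 50 or equal totals, and 1 member was lower under quantile normalization (Ndufs1) and by edgeR (Atp5a1). In sgNrf2, quantile normalization called 42 lower and equal totals 37. The sgNrf2 median was -1.02 with equal totals, which put the median of all genes at 0.34, and -0.68 relative to the length class. The cause of these changes was not tested, except that a stricter mean removes Cox4i2 from the genes tested. With a library left out, sgKeap1 gave 0 to 1 higher and 0 to 1 lower, both guides 0 to 1 higher and 0 to 3 lower, and sgNrf2 0 to 65 lower with a median of -1.56 to -1.08; a group left with 1 library is assumed to vary like the other. With the replicate block, sgKeap1 had 8 higher and 2 lower, both guides 2 and 1, and sgNrf2 31 lower, of which 25 of the 28 are shared; the sgKeap1 numbers share only a number, and the sgNrf2 letters correlated at -0.0006. No direction of a called member was reversed: of 2408 values of named members under alternatives, 2200 kept direction and side of the threshold, 79 lost it, 52 gained it and 77 uncalled ones changed sign. With 2 libraries a group in the second table, members that miss the threshold are not shown to be equal.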
